A study of Mus musculus with 18 samples.

Results

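A set of 9 genes of threonine, glycine and serine metabolism was followed in mouse pancreas across 3 genotypes. They were Tdh, Gcat, Gatm, Gnmt, Cbs, Cth, Asns, Phgdh and Psat1, taken by gene symbol from a table of 25651 genes, and all 9 members were in it. Tdh was picked because its level was strongly lower in KPC than in wild-type pancreas, and the others are enzymes of connected reactions. Their KPC against wild-type differences are therefore given as a description, without a p-value. Of the 9, 8 passed the filter on low counts and were among the 6920 genes tested, and Cth did not pass.

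The pancreas was collected from 18 mice aged 20 weeks, of mixed 129Sv and C57BL/6 descent, and snap-frozen. There were 5 KPC ASC KO, 7 KPC and 6 wild-type (WT) mice, each giving 1 library. KPC commonly names a pancreatic cancer model driven by a Cre recombinase active in the pancreas, but the labels give no alleles and no Cre promoter. ASC is the inflammasome adaptor that Pycard encodes, and the labels do not say how or in which cells it was removed. The labels also give no sex, litter or batch, and WT mice are labelled by genotype only. KPC ASC KO and KPC mice share the KPC label, and all 3 groups share age and strain mix.

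Threonine dehydrogenase and glycine C-acetyltransferase work in sequence in mouse mitochondria to split threonine into glycine and acetyl-CoA. Glycine can also be made from serine, which itself is built from a glycolytic intermediate by phosphoglycerate dehydrogenase, phosphoserine aminotransferase and phosphoserine phosphatase. Glycine is then spent on creatine precursor and on methyl group disposal, and serine on cysteine through transsulfuration. The pancreas is known for its high rate of protein synthesis in acinar cells, which secrete the digestive enzymes, and for making guanidinoacetate, the precursor of creatine.

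Library totals ran between 294077 and 1626977 counts. Values are given in CPM, counts brought to a common library total, after scaling by trimmed mean of M values (TMM), which sets the libraries' middle genes equal. As a check of the tissue, the share of counts in 28 acinar enzyme genes was 39.8% ± 8.91 in KPC ASC KO, 14.7% ± 11.6 in KPC and 44.3% ± 3.44 in WT mice (SD, n = 5, 7 and 6). Among KPC mice 4 were at 3.85% to 7.72%, mice 40 and 210 at 21.4% and 23.2%, and mouse 48 at 34.3%. Among KPC ASC KO mice, 377 and 384 stood apart at 32.9% and 27.7%, against 44.6% to 47.3% in the other 3. Fibroblast genes (12, summed as CPM of all counts) ran between 688 and 3625 in KPC ASC KO, 2471 and 6524 in KPC and 547 and 960 in WT mice, and the 12 macrophage genes between 559 and 3424, 2161 and 5464, and 519 and 868 in the same order. In pieces of whole organ, fewer cells of a type and less RNA per cell cannot be told apart. Pycard stood at 5.56 to 34.2 CPM in KPC ASC KO, 35.1 to 99.5 CPM in KPC and 45.4 to 65.5 CPM in WT mice, and tags from the end of a transcript need not lie in a deleted part.

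Tdh, the enzyme that oxidises threonine, lies at chr14:63492347-63509092 (GRCm38) and showed the widest difference between groups of the members. In KPC ASC KO pancreas it stood at 62.7 CPM in mouse 318, 78.1 CPM in mouse 335, 54.9 CPM in mouse 388, 9.28 CPM in mouse 377 and 7.42 CPM in mouse 384. In KPC mice the lowest value was 0 CPM, the median 1.80 CPM and the highest 7.50 CPM, and in WT mice they were 76.9, 109 and 199 CPM. All KPC mice were below all WT mice, 4 of 5 KPC ASC KO mice were below every WT mouse, and KPC ASC KO mouse 384 fell within the KPC range while the other 4 lay above it. Its mean was 42.5 ± 32.3 CPM in KPC ASC KO, 2.04 ± 2.63 CPM in KPC and 122 ± 46.0 CPM in WT pancreas (SD, n = 5, 7 and 6). These rest on 64 counts over the KPC ASC KO libraries, 12 over the KPC libraries, with 2 mice at 0, and 170 over the WT libraries. The log2 difference was -6.40 (SE 0.66) for KPC against WT, and -3.23 (SE 0.88) with a covariate for the acinar enzyme level. The annotated record Gm13929 matches the last 300 bases of Tdh at 97.7% identity and held 1 count in all libraries, so reads could be split between them. Tdh passed the low-count filter through 3 KPC ASC KO and 6 WT mice and through 0 KPC mice.

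Gcat, the mitochondrial enzyme that takes the product of Tdh to glycine, lies at chr15:79030874-79038353. It stood at 342, 469, 130, 200 and 376 CPM in KPC ASC KO mice 318, 335, 377, 384 and 388. The lowest, median and highest values were 19.0, 25.5 and 283 CPM in KPC mice, against 317, 416 and 453 CPM in WT mice. KPC mice lay wholly below WT mice, with KPC mouse 48 nearest, and KPC ASC KO mice overlapped both groups. The KPC against WT log2 difference was -2.28 (SE 0.60).

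Gatm and Gnmt are the members that spend glycine. Gatm, at chr2:122594467-122611303, moves an amidino group of arginine to glycine, the first step of creatine synthesis. It stood at 681, 703, 379, 308 and 557 CPM in KPC ASC KO mice 318, 335, 377, 384 and 388. Lowest, median and highest values for KPC mice were 23.0, 43.7 and 418 CPM, against 266, 409 and 807 CPM in WT mice. The KPC and WT ranges overlapped through KPC mouse 48 alone, as the other 6 KPC mice were at 156 CPM or less, and the highest WT value was that of mouse 69. The KPC against WT log2 difference was -1.95 (SE 0.58). Gnmt, at chr17:46725664-46729168, methylates glycine to sarcosine with S-adenosylmethionine. It stood at 108, 149, 61.2, 26.0 and 114 CPM in the same KPC ASC KO mice. The lowest, median and highest values were 3.73, 14.4 and 69.6 CPM in KPC, against 110, 149 and 179 CPM in WT mice. KPC mice lay wholly below WT mice, with a log2 difference of -3.19 (SE 0.58), and KPC ASC KO mice overlapped both groups.

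Cbs and Cth carry out transsulfuration. Cbs, at chr17:31608894-31637238, joins serine to homocysteine. It stood at 197, 180, 68.7, 98.3 and 220 CPM in KPC ASC KO mice 318, 335, 377, 384 and 388. KPC mice had a lowest, median and highest value of 4.78, 7.79 and 106 CPM, against 192, 224 and 327 CPM in WT mice. KPC mice lay wholly below WT mice, with a log2 difference of -3.43 (SE 0.63). Part of the end of Cbs matches Araf and Ube2e1 at 95% identity or more, so its counts are uncertain to that extent. Cth, at chr3:157894248-157925077, releases cysteine from the product of Cbs, and it was low in every group. It averaged 9.58 ± 5.01 CPM in KPC ASC KO, 5.68 ± 7.60 CPM in KPC and 23.2 ± 22.2 CPM in WT pancreas (SD, n = 5, 7 and 6), and the 3 ranges overlapped. With no filter on low counts its KPC against WT log2 difference was -2.36 (SE 0.61). In the same fit it stood at 1.10 in KPC ASC KO against KPC (adjusted p = 0.463) and at -1.26 in KPC ASC KO against WT (adjusted p = 0.753). No library held more than 13 counts of Cth, so these differences are measured only roughly.

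Asns makes asparagine from aspartate, and Phgdh and Psat1 carry out the opening steps of serine synthesis. All 3 are known targets of ATF4, the transcription factor of the amino acid response, so the windows around their start sites are shown. Of the 9 members, 7 matched the RefSeq promoter table (build GRCm38.p6), and Tdh and Cth have no window here. Each window runs from 250 bases before to 50 bases after the start and is read on the gene's strand. Capitals mark matches on either strand to TGATGNAA (the letters of a C/EBP-ATF response element), CAGCTG (an E-box bound by basic helix-loop-helix factors such as PTF1A) or CCAAT (the letters bound by NF-Y).
Asns chr6:7693160-7693459 minus strand: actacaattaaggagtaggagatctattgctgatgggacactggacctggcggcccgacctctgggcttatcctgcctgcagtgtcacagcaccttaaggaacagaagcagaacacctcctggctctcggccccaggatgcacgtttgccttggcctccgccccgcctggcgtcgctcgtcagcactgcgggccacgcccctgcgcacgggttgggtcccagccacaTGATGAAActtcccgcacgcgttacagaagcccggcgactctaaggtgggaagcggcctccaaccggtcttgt
Phgdh chr3:98339920-98340219 minus strand: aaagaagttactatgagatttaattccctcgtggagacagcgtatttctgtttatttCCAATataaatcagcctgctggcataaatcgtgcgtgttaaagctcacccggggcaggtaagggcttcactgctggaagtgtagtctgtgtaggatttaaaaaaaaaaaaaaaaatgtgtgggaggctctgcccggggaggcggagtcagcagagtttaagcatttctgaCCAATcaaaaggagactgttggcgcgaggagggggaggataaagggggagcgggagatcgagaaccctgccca
Psat1 chr19:15925010-15925309 minus strand: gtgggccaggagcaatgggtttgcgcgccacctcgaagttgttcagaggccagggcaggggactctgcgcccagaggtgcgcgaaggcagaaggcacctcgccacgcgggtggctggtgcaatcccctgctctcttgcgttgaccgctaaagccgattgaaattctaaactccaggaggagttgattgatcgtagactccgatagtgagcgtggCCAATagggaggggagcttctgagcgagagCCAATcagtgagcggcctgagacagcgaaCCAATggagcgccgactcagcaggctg
The Asns window held the single TGATGNAA match among the members, TGATGAAA with its first base 23 bases before the start, and 3.97% of 32851 promoter windows held one. CCAAT was in windows of Phgdh, Psat1, Gatm, Cbs and Gnmt, 5 of the 7 matched genes, and in 37.4% of all windows. The 7 genes have 8 windows, as Psat1 has another at chr19:15924573-15924872, not printed here, which held no match to any of the motifs. CAGCTG was found in the Gcat window only, and in 16.3% of all windows. No motif was shared by all 7 genes, and a match is a description of letters, not of binding.

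Asns, at chr6:7675169-7693254, stood at 299, 363, 134, 122 and 346 CPM in KPC ASC KO mice 318, 335, 377, 384 and 388. KPC mice ran between 15.9 and 192 CPM with a median of 32.3 CPM, against a lowest, median and highest value of 232, 314 and 359 CPM in WT mice. KPC mice lay wholly below WT mice, with a log2 difference of -2.34 (SE 0.50). Phgdh, at chr3:98313170-98339990, stood at 160, 324, 90.9, 66.8 and 207 CPM in the same KPC ASC KO mice. The lowest, median and highest values were 10.6, 40.2 and 134 CPM in KPC, against 146, 171 and 287 CPM in WT mice. KPC mice again lay wholly below WT mice, with a log2 difference of -2.02 (SE 0.46). Other annotated records match the last 300 bases of Phgdh at 95% identity or more, so its counts are uncertain as far as reads may be split between them. Psat1, at chr19:15904678-15947337, was the member with the least separated groups. It stood at 22.8, 31.3, 16.7, 9.27 and 54.9 CPM in KPC ASC KO mice 318, 335, 377, 384 and 388. The lowest, median and highest values were 5.29, 14.3 and 36.0 CPM in KPC, against 5.16, 32.5 and 123 CPM in WT mice. The 3 ranges overlapped, WT mouse 1237 held the 123 CPM, and the KPC against WT log2 difference of -1.57 (SE 0.50) was -0.97 (SE 0.48) without that mouse and -0.29 with total counts.

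Set side by side, the members were lower in KPC than in WT pancreas in each of the 8 genes tested. The test, edgeR's quasi-likelihood test over all 6920 genes at an adjusted p under 0.05, called 8 of 8 lower, where 15.1% of all genes were called lower and 29.9% were called in either direction. Because Tdh was chosen on this difference, nothing is read from that count. The members' median log2 difference was -2.31, beside 0.06 over all genes tested and -2.53 over the 28 acinar enzyme genes. In CPM, 6 members (Tdh, Gcat, Gnmt, Cbs, Asns and Phgdh) had no overlap between KPC and WT mice, where 5.09% of all genes were lower and 3.77% higher without overlap. The count of members called was 7 with total counts, where Psat1 was not called, 7 without WT mouse 69, where Gatm was not called, and 7 without WT mouse 1237, where Psat1 was not called. In the same order 176, 937 and 985 genes were called lower. With a covariate for the acinar enzyme level, which itself differed between the groups, edgeR called 0 members and 0 genes, and 910 genes were at an unadjusted p under 0.05. Without KPC mice 40, 89, 145 and 154, the 4 with the most B cell transcripts, 3 members were called (Tdh, Gnmt and Cbs). That fit called 752 of 5852 genes, 346 of them lower.

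The comparison of KPC ASC KO with KPC pancreas asks what loss of ASC changes in the cancer model. It uses the KPC mice whose low Tdh led to its choice, and Tdh passed the filter through 0 of them, so Tdh is described here without a p-value. Its log2 difference was 4.75 (SE 0.74), and 1.81 (SE 0.87) with a covariate for the acinar enzyme level. Of the other 7 tested members, 5 were higher in KPC ASC KO mice, where 9.42% of all genes tested were called, 6.73% higher and 2.69% lower. Cbs rose by 2.76 on the log2 scale (SE 0.65, adjusted p = 0.0180) and Gnmt by 2.44 (SE 0.61, adjusted p = 0.0208). Gatm rose by 2.17 (SE 0.60, adjusted p = 0.0350), Asns by 2.02 (SE 0.51, adjusted p = 0.0244) and Phgdh by 1.87 (SE 0.47, adjusted p = 0.0231). Gcat, at 1.86 (SE 0.62, adjusted p = 0.0692), and Psat1, at 0.79 (SE 0.54, adjusted p = 0.369; -0.33 with total counts), did not pass. The median over all 8 was 2.10, beside -0.05 over all genes tested and 2.32 over the acinar enzyme genes, of which 25 of 28 rose. All 9 members overlapped in CPM between the groups, where 1.24% of all genes were higher and 1.05% lower without overlap, and KPC mouse 48 was high and KPC ASC KO mice 377 and 384 were low.

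With Tdh the count was 6, and it changed with single mice and with the settings. The choice of Tdh used these KPC mice, so nothing is read from its call in any setting. The count was 1 without KPC ASC KO mouse 318, 335 or 388, where no member but Tdh was called and 191, 157 and 205 genes were. It was 3 without KPC mouse 145 or 154, where 335 and 334 genes were called. Without KPC ASC KO mice 377 and 384 it was 7, with 1098 genes called, and this setting was chosen after seeing the data. In edgeR it was 0 with a covariate for the acinar enzyme level (2 members at an unadjusted p under 0.05), 0 without KPC mice 40, 89, 145 and 154 (4 members), and 0 of 7 with only the 2 groups in the fit (6 members). In the same order 0, 1 and 192 genes were called. With no filter on low counts it was 2 (Cbs besides Tdh), where 763 of 25651 genes were called, 425 of them higher. In DESeq2 and limma-voom it was 7, Gcat added, where 810 and 675 of 6920 genes were called, 539 and 589 of them higher.

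Between KPC ASC KO and WT pancreas 0 of 8 members passed, and 0% of the 6920 genes did in edgeR, with 691 genes, 1 of them a member (Tdh), at an unadjusted p under 0.05. DESeq2 called 8 genes and limma-voom 0, none of them members. This comparison shares the WT mice on which Tdh was chosen. Tdh had the largest log2 difference of the members, -1.65 (SE 0.57, adjusted p = 0.334), and it was below the WT range in 4 of 5 KPC ASC KO mice. Psat1 stood at -0.78 (SE 0.57, adjusted p = 0.666), Gnmt at -0.74 (SE 0.59, adjusted p = 0.702) and Cbs at -0.66 (SE 0.63, adjusted p = 0.772). Gcat, Asns, Phgdh and Gatm lay between -0.42 and 0.22, with adjusted p-values of 0.880 to 0.954. In the order of mean levels, WT came first for 8 members and KPC ASC KO for Gatm, and in no member did these neighbouring groups separate in CPM, where 0.506% of all genes were higher and 0.477% lower in KPC ASC KO without overlap.

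**Figure D1:**
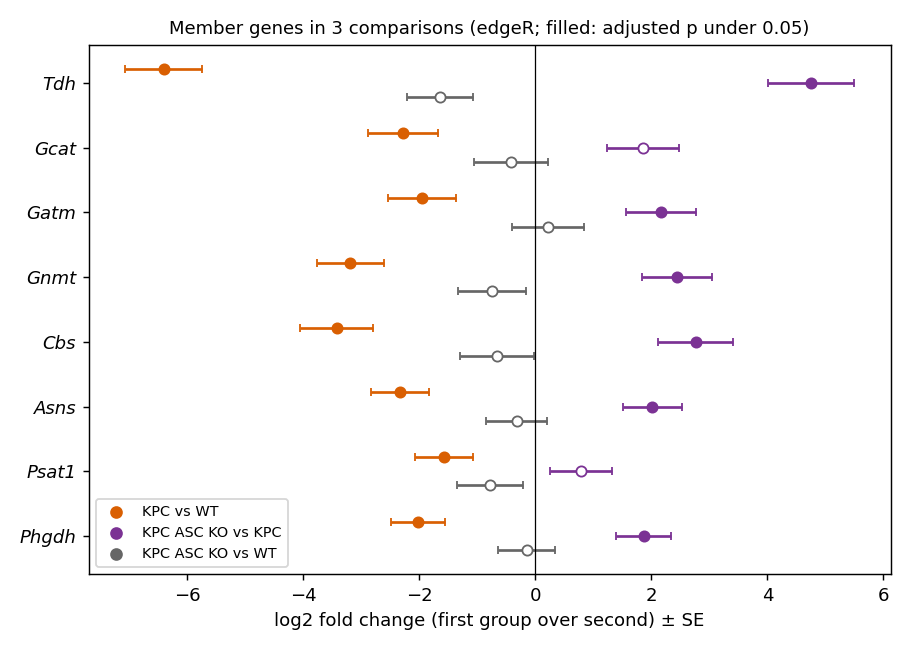
Log2 fold change with its SE (x axis, first group over second) of the 8 tested members (y axis) in the 3 comparisons. KPC against WT lies between -6.40 and -1.57, KPC ASC KO against KPC between 0.79 and 4.75, and KPC ASC KO against WT between -1.65 and 0.22.

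Within the genotypes the members followed individual mice. KPC mouse 48, with the highest acinar share of the KPC mice (34.3%), had the highest KPC value of 8 members, all but Tdh. Its values were 283 CPM for Gcat, 418 for Gatm, 69.6 for Gnmt, 106 for Cbs, 192 for Asns, 134 for Phgdh, 36.0 for Psat1 and 21.6 for Cth. Tdh in the same library was a single count, 1 (exact Poisson 95% interval 0.025 to 5.57 counts, which covers counting error only), or 2.40 CPM. KPC ASC KO mice 377 and 384, with the lowest acinar shares of their group, held the lowest KPC ASC KO values of all 9 members. The part of acinar content in these differences was not tested.

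**Figure D2:**
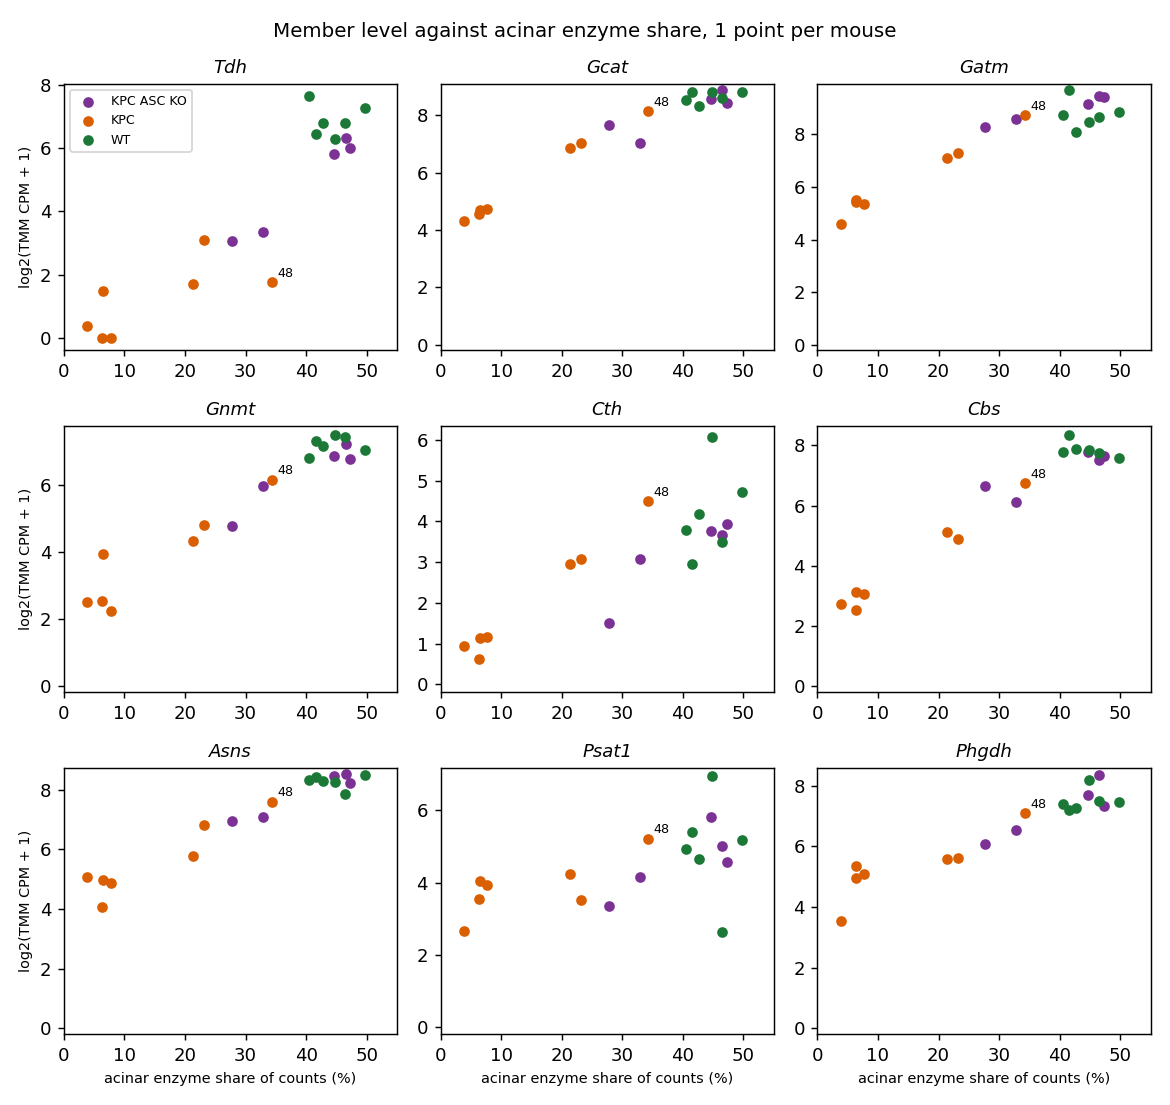
Level of each member, as log2 of CPM after TMM scaling plus 1 (y axis), against the share of counts in the 28 acinar enzyme genes in percent (x axis), with 1 point per mouse, coloured by genotype, and KPC mouse 48 marked. Mouse 48, at a share of 34.3%, has the highest KPC level of every member but Tdh, which stayed at 1 count.

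To set the members against acinar content without a library scaling, counts were also divided by the acinar enzyme counts of the same mouse, a measure added after seeing the data and given with no test. Per 10000 acinar enzyme counts, Tdh stood at 0.617 ± 0.321 in KPC ASC KO, 0.184 ± 0.201 in KPC and 1.87 ± 0.980 in WT mice (SD, n = 5, 7 and 6). The highest KPC ASC KO mouse, at 1.01, and the highest KPC mouse, at 0.507, were both below the lowest WT mouse, at 1.14. KPC ASC KO and KPC mice overlapped. Among the 6920 genes, 1 gene (0.0145%), the carboxypeptidase gene Cpb1, was higher and 10.9% were lower in KPC ASC KO than in KPC mice without overlap. The KPC mice were wholly below the WT mice in 11 genes (0.159%), with Tdh at the lowest ratio of means, 0.0983, followed by Gal at 0.270 and Hamp2 at 0.332. The KPC ASC KO mice were wholly below the WT mice in 2 genes (0.0289%), Tdh at a ratio of 0.331 and Pycard at 0.356. For Tdh the nearest mice were KPC ASC KO mouse 335 (20 counts, Poisson 95% interval of the ratio 0.619 to 1.565) and WT mouse 1237 (15 counts, 0.638 to 1.879). These intervals overlap widely, so the gap between these 2 mice is within counting error. They do not measure the difference between the group means. Tdh was picked on the KPC against WT difference, and both comparisons with WT use the WT mice of that choice. Its place in each of them is therefore a description.

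The other 8 members overlapped between groups on this measure in each comparison, where 49.3% of all genes were higher without overlap in KPC than in WT and 0.376% in KPC ASC KO than in WT. Gcat stood at 5.46 ± 1.74 in KPC ASC KO, 7.25 ± 1.27 in KPC and 6.04 ± 1.25 in WT mice (SD, n = 5, 7 and 6, as for the next values). Cbs was at 2.74 ± 0.794, 2.08 ± 0.597 and 3.62 ± 1.23 in the same groups, and Gnmt at 1.53 ± 0.377, 1.88 ± 1.08 and 2.22 ± 0.486. Gatm was at 9.70 ± 2.06, 10.4 ± 1.83 and 6.87 ± 3.58. The serine synthesis and asparagine genes had a higher mean in KPC: Phgdh was at 2.87 ± 0.856 in KPC ASC KO, 5.97 ± 3.26 in KPC and 2.77 ± 0.848 in WT mice, Psat1 at 0.463 ± 0.195, 2.28 ± 1.42 and 0.652 ± 0.611, and Asns at 4.39 ± 0.664, 7.24 ± 4.45 and 4.71 ± 1.21. Acinar enzyme counts ran between 59165 and 155250 in KPC and 123235 and 193690 in WT mice, while library totals averaged 881200 and 355200. Over all tested genes the median ratio of KPC to WT means was 14.5, and the median of KPC ASC KO to WT was 1.43. Every member was thus below the median gene in KPC on this measure.

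**Figure D3:**
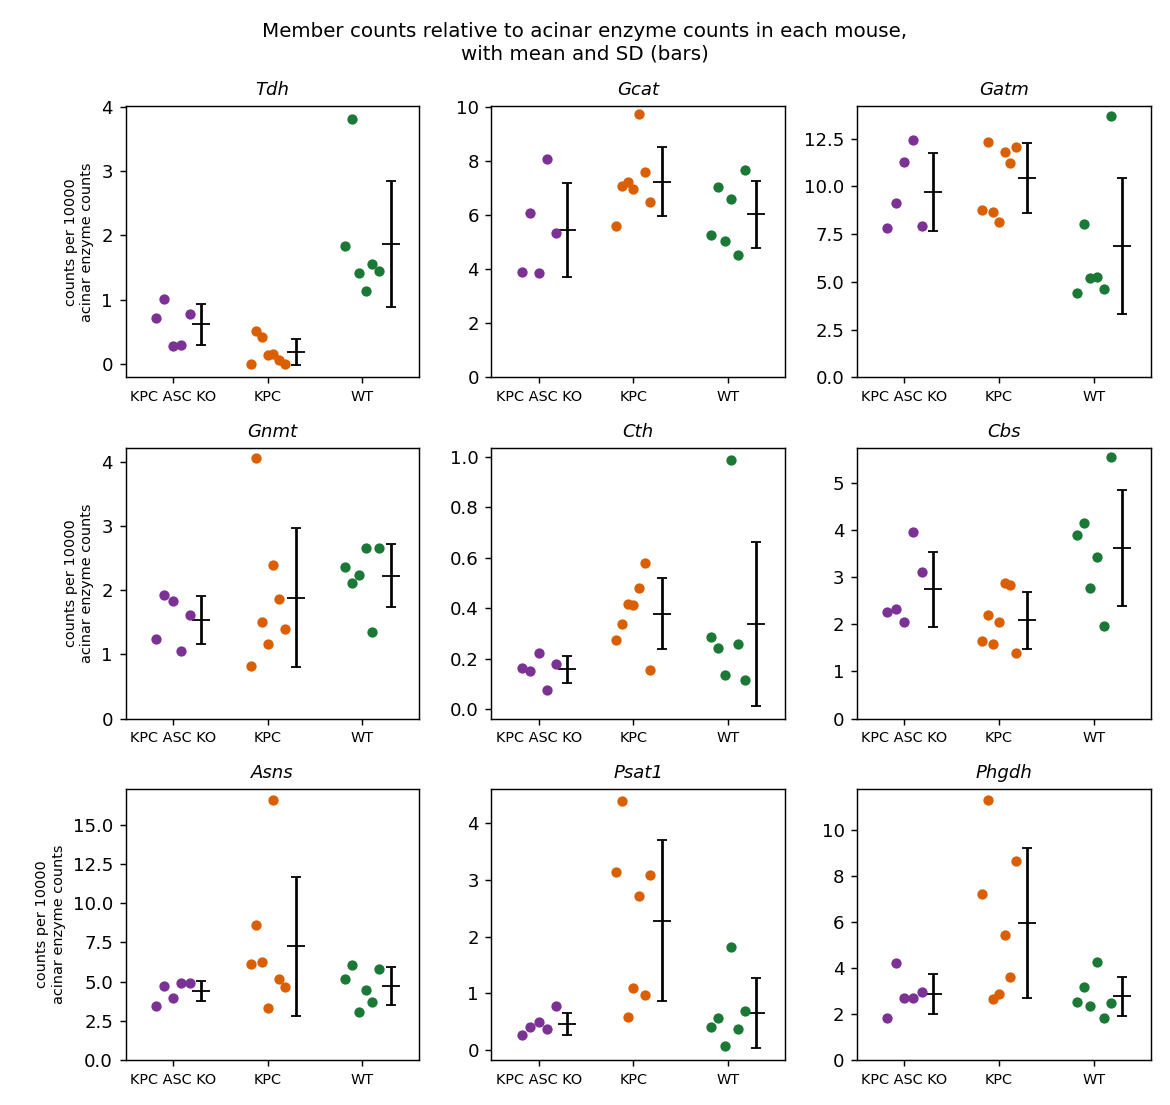
Counts of each member per 10000 acinar enzyme counts of the same mouse (y axis), with KPC ASC KO on the left, KPC in the middle and WT on the right, and the mean and SD beside the points. Tdh in KPC ASC KO (highest 1.01) and KPC mice (highest 0.507) lies below every WT mouse (lowest 1.14), and the other members overlap. The gap between 1.01 and 1.14 is within counting error.

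The neighbouring reactions were described with 127 other genes in 11 lists, of which 120 were in the table and 78 were tested. In KPC against WT pancreas 33 of the 78 fell (42.3%, beside 15.1% of all genes) and 2 rose (beside 14.8%), with a median log2 difference of -0.74 against 0.06 over all genes. In KPC ASC KO against KPC pancreas 23 of the 78 rose (29.5%, beside 6.73%) and 0 fell, with a median of 0.32 against -0.05. In KPC ASC KO against WT 0 of the 78 passed. Scaling by total counts shifted the median of all genes by 1.34 in KPC against WT and by -1.10 in KPC ASC KO against KPC, so the directions below are relative to the middle gene of a library. With total counts 7 of the 78 fell and 33 rose in KPC against WT, where 176 of all 6920 genes fell and 5508 rose. In KPC ASC KO against KPC 9 of the 78 rose and 38 fell, where 142 of all genes rose and 5051 fell. The direction of these counts depends on the scaling, and the counts over all genes shift with it. The part of acinar content in the values of these lists was not tested.

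Of the glycine cleavage and transport genes, 2 of 5 fell in KPC. They were Gcsh, the lipoyl carrier of the cleavage system, at -1.19 (SE 0.30, adjusted p = 0.00457; 0.12 with total counts), and Slc6a9, a glycine transporter, at -1.63 (SE 0.52, adjusted p = 0.0237). Slc6a9 rose by 1.87 in KPC ASC KO against KPC (adjusted p = 0.0319). Of the folate one-carbon genes 3 of 7 fell in KPC, among them Aldh1l1, which oxidises formyl-tetrahydrofolate, at -2.03 (SE 0.34, adjusted p = 0.000206) and its mitochondrial form Aldh1l2 at -2.47 (SE 0.69, adjusted p = 0.0132). Mthfd2, a mitochondrial folate dehydrogenase, fell by 1.23 (SE 0.43, adjusted p = 0.0375), and Atic of purine synthesis rose by 1.33 (SE 0.38, adjusted p = 0.0112). With total counts Slc6a9 (-0.46), Aldh1l1 (-0.70) and Mthfd2 (-0.02) were not called in KPC against WT. The calls became 0 lower and 2 higher of the 5 glycine genes and 1 lower and 1 higher of the 7 folate genes. Over all 6920 genes they became 176 lower and 5508 higher. Aldh1l1 (1.52, adjusted p = 0.0116) and Aldh1l2 (2.42, adjusted p = 0.0406) rose in KPC ASC KO against KPC.

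Genes next to Gatm and Gnmt also fell in KPC. Gamt, which methylates the product of Gatm to creatine, stood at -2.83 (SE 0.53, adjusted p = 0.00134) in KPC against WT and at 2.58 (adjusted p = 0.0111) in KPC ASC KO against KPC. Sardh, which oxidises the sarcosine that Gnmt makes, stood at -1.94 (SE 0.47, adjusted p = 0.00412) and 1.71 (adjusted p = 0.0279). These were 2 of the 4 tested genes of that list. In the methionine cycle, Mat1a, which makes S-adenosylmethionine, stood at -3.03 (SE 0.59, adjusted p = 0.00137) and 2.22 (adjusted p = 0.0350), and Ahcy, which splits S-adenosylhomocysteine, at -1.54 (SE 0.44, adjusted p = 0.0141). Both were called in the opposite direction in KPC ASC KO against KPC (adjusted p = 0.0445 for Ahcy), and they were 2 of 6 tested. In the list of transsulfuration, cysteine and glutathione, 0 of 7 genes other than Cbs passed in any comparison. The list's median was -0.21 in KPC against WT. With total counts 6 of the 7 rose in KPC against WT, where 5508 of all 6920 genes rose. In KPC ASC KO against KPC 5 of the 7 fell with total counts, where 5051 of all 6920 genes fell. With total counts 1 fell and 1 rose of the 4 genes beside Gatm and Gnmt, in KPC against WT. Of the 6 methionine cycle genes 1 fell and 4 rose, and of all 6920 genes 176 fell and 5508 rose.

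Of the genes around asparagine, glutamine, arginine and proline, 4 of 8 fell in KPC and the same number rose in KPC ASC KO against KPC. The proline synthesis enzyme Pycr1 stood at -2.40 (SE 0.46, adjusted p = 0.00110) in KPC against WT. Aldh18a1, which opens that path, stood at -1.27 (SE 0.31, adjusted p = 0.00418; 0.03 with total counts), and the glutaminase Gls2 at -1.64 (SE 0.57, adjusted p = 0.0394). Of the ATF4 pathway, 8 of 18 genes other than the members fell in KPC and 5 rose in KPC ASC KO against KPC. Among them Eif2ak3, a kinase that senses unfolded protein, stood at -1.70 (SE 0.29, adjusted p = 0.000244) and 1.48 (adjusted p = 0.00626), Eif4ebp1, a brake on translation, at -1.60 (SE 0.26, adjusted p = 0.000189) and 1.19 (adjusted p = 0.0110), and Atf4 itself at -1.03 (SE 0.21, adjusted p = 0.00110) and 0.71 (adjusted p = 0.0407). With total counts Atf4 had the opposite signs, at 0.24 and -0.34. In KPC against WT 0 of the 18 ATF4 pathway genes then fell and 5 rose, and 1 of the 8 genes around asparagine fell and 4 rose. Over all 6920 genes 176 fell and 5508 rose with that scaling.

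Of the amino acid transporters 7 of 10 fell in KPC and 1 rose. Slc38a5, a transporter of glutamine, serine and glycine, stood at -3.49 (SE 0.72, adjusted p = 0.00261) in KPC against WT and 2.96 (adjusted p = 0.0238) in KPC ASC KO against KPC, and Slc7a8, a transporter of neutral amino acids, at -2.72 (SE 0.43, adjusted p = 0.000271) and 2.45 (adjusted p = 0.00525). Slc38a1, a glutamine transporter, rose by 1.61 (SE 0.44, adjusted p = 0.00798) in KPC. Of the 20 cytosolic tRNA synthetases 9 fell in KPC and 5 rose in KPC ASC KO against KPC. Mars1, for methionine, stood at -1.88 (SE 0.27, adjusted p = 6.3e-05) and 1.09 (adjusted p = 0.0196; -0.04 with total counts), and Nars, for asparagine, at -1.30 (SE 0.24, adjusted p = 0.000451) and 0.86 (adjusted p = 0.0322; -0.20 with total counts). With total counts 3 of the 10 transporters fell and 2 rose in KPC. Of the 20 tRNA synthetases 0 fell and 9 rose in KPC, and 0 rose and 12 fell in KPC ASC KO against KPC. Over all 6920 genes 176 fell and 5508 rose in KPC, and 142 rose and 5051 fell in KPC ASC KO against KPC. Of the other genes of serine synthesis and of threonine and serine breakdown, Psph, Tha1, Sds, Sdsl and Srr were too low to test. Psph, the last enzyme of serine synthesis, averaged 10.9 CPM in KPC ASC KO, 13.5 CPM in KPC and 22 CPM in WT mice.

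**Figure D4:**
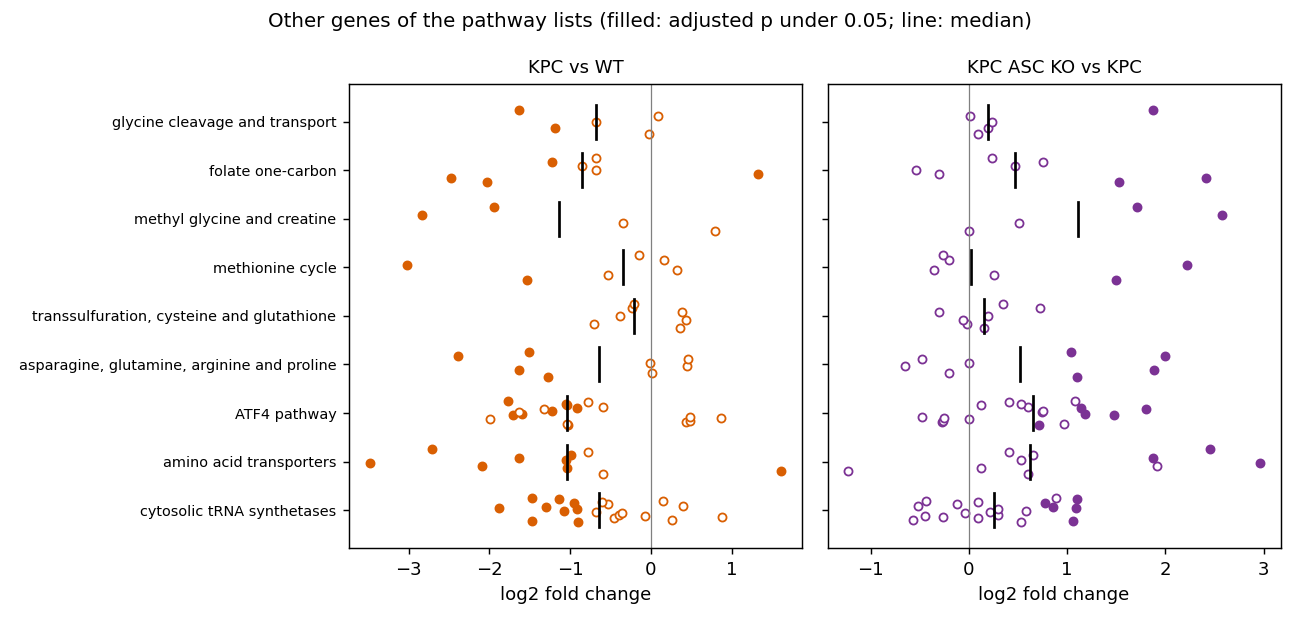
Log2 fold change (x axis) of the tested genes of the pathway lists other than the members, by list (y axis). The panels show KPC against WT and KPC ASC KO against KPC, with genes at an adjusted p under 0.05 filled and a line at each list's median. In KPC against WT 33 genes are filled below 0 and 2 above it, and in KPC ASC KO against KPC 23 above and 0 below.

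The genes whose pattern over the 18 mice was most like that of Tdh were Padi2, Tmem63b, Gal, Slc35c2 and Dhx34, at a root mean square distance of 0.252, 0.270, 0.280, 0.303 and 0.312 SD between scaled log2 CPM profiles, among 6470 genes ranked. Gal, which encodes the peptide galanin, stood at 521 ± 408 CPM in KPC ASC KO, 54.8 ± 55.4 CPM in KPC and 1365 ± 403 CPM in WT mice (SD, n = 5, 7 and 6). Padi2, a peptidyl arginine deiminase, stood at 31.8 ± 16.1, 9.32 ± 3.82 and 61.7 ± 17.9 CPM in the same groups. Of the members the nearest to Tdh was Gnmt, at rank 59, then Asns at 81, Cbs at 99, Gcat at 192, Phgdh at 238, Gatm at 402 and Psat1 at 1181. All 18 mice of the 3 groups enter this measure.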

How the data were processed

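Per the labels' protocols, total RNA was primed at its poly(A) tail with an oligonucleotide holding an 8 bp sample index and a UMI (unique molecular identifier) of 10 bp, and read in the sense direction. The deposited table holds the authors' whole-number UMI counts per gene, not normalised. Per the submitters' processing notes they used GRCm38, R 4.1.2, edgeR 3.36.0 and limma 3.50.0. The aligner is not given in the sources used here.

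Here the counts were tested with edgeR 4.0.16 in R 4.3.3: filterByExpr (21.4 CPM, or 10 counts at the median library, in at least 5 mice), TMM, and the robust quasi-likelihood test on all 18 mice in 3 groups. P-values were adjusted by Benjamini-Hochberg over 6920 genes, and the call was an adjusted p under 0.05. Alternatives used other scalings and filters, DESeq2 1.42.0, limma-voom (limma 3.58.1), 2-group fits, an acinar covariate and left-out mice. P-values measure the spread between mice. Within a group no pair of libraries had counts as alike as sampling alone would give (chi-square per degree of freedom at least 2.53).

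The members and lists were chosen with earlier results of these data known. Named were all members, the non-members of each list with the smallest p (up to 4 in KPC against WT, and up to 4 called elsewhere), and the 5 genes most like Tdh. A gene that this rule names is not reported here. Gal, Hamp2, Pycard and Cpb1 beside the acinar ratio were named after their values were seen. Promoter windows are RefSeq's.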

Additional observations from a re-analysis of the deposited data

Results flagged for a closer look

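Of 54 sets of values (9 genes in 3 groups on 2 scales), 17 held a mouse farther from its group than the gap expected within such a group at the 95% level, which chance alone gives in about 1 of 20 sets. In CPM, KPC mouse 48 stood above the other KPC mice in Gcat (283), Gatm (418), Gnmt (69.6), Cth (21.6), Cbs (106), Psat1 (36.0) and Phgdh (134). Mouse 48 had the highest acinar enzyme share of the KPC mice, 34.3%, against 3.85% to 23.2% in the other 6. KPC mouse 210 stood above the others in Tdh, at 7.50 CPM from 5 counts.

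Among WT mice, mouse 1237 was highest in Psat1 (123 CPM), Cth (66.7 CPM) and Phgdh (287 CPM), and mouse 69 in Gatm (807 CPM) and Cbs (327 CPM). Per 10000 acinar enzyme counts, WT mouse 1237 stood apart in Psat1 (1.82) and Cth (0.988), WT mouse 1202 in Tdh (3.81), and KPC mouse 43, with the lowest acinar share (3.85%), in Asns (16.6).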

How the results depend on the processing

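In KPC against WT the main analysis called 2070 genes and 8 members. Total counts called 5684 genes and 7 members, the acinar covariate 0 genes and 0 members, and leaving out KPC mice 40, 89, 145 and 154 called 752 genes and 3 members. In KPC ASC KO against KPC, 652 genes and 6 members became 5193 genes under total counts, 192 genes and 0 members with only the 2 groups compared (where Tdh failed the filter), 0 and 0 with the acinar covariate, 1 and 0 without the 4 KPC mice, 2 members with no filter, and 1098 genes without KPC ASC KO mice 377 and 384. In KPC ASC KO against WT, 0 genes became 1 under total counts, 8 in DESeq2, 12 with no filter, 8 with only the 2 groups and 4 with the acinar covariate. Among called genes, 49.4% were higher in KPC against WT and 71.5% in KPC ASC KO against KPC, which total counts moved to 96.9% and 2.73%. Leaving out 1 mouse gave 1706 to 2325 genes and 7 to 8 members in KPC against WT, 157 to 1068 genes and 1 to 7 members in KPC ASC KO against KPC, and 0 to 1 genes and 0 members in KPC ASC KO against WT.

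Psat1 changed sign in KPC ASC KO against KPC under total counts (-0.33, adjusted p = 0.512) and with the acinar covariate (-0.28, adjusted p = 0.993). Against WT, Asns (0.11) and Phgdh (0.32) turned positive without KPC ASC KO mice 377 and 384, and Phgdh ran between -0.54 and 0.065 when 1 mouse was left out. The cause of these changes was not tested. RLE size factors changed no call of a member, and called 2085 genes in KPC against WT and 622 in KPC ASC KO against KPC. The planned correlation of member level with acinar share in KPC mice was not run, because those shares fall into separate clusters. No paired analysis was possible because mouse numbers are not shared between groups.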

Other observations

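WT mouse 1237 was singled out after its Psat1 value was seen. Of 129 pathway genes and members found in the table, mouse 1237 was the highest WT mouse for 33, where it was the highest for 17.6% of all 6920 genes tested. The 129 include genes too low to test, such as Slc43a1 (1 count in mouse 1237) and Mthfd1l (2 counts), so the 2 sets of genes are unlike. The 33 also include Psat1, Cth and Phgdh, in which mouse 1237 was already flagged, and its library was the smallest. WT mouse 1238 was the highest for 27, where it was the highest for 14.2% of all genes, and mouse 69 for 24, beside 19.3%. Of the 28 ATF4 pathway genes, some of them too low to test, mice 1237 and 1238 were each the highest for 9, beside 17.6% and 14.2% of all genes tested. Gcsh stood at 97.4 CPM in mouse 1237, against 38.2 ± 3.88 CPM (SD, n = 5) in the other WT mice. Trib3, a pseudokinase gene of the ATF4 pathway, stood at 30.8 CPM, or 6 counts, in mouse 1237, and at no more than 5.05 CPM, or 1 count, in the other WT mice. Ddit4 stood at 61.5 CPM in mouse 1237 against 26.4 ± 14.6 CPM (SD, n = 5), Eif4ebp1 at 405 CPM against 335 ± 33.6 CPM (SD, n = 5), and Atf4 itself at 179 CPM against 244 ± 57.9 CPM (SD, n = 5). Other genes of the list were also below the mean of the other WT mice, at few counts. In mouse 1237 Ddit3 stood at 5.13 CPM against 11.7 CPM, Sesn2 at 0 against 14.0 CPM and Slc7a11 at 5.13 CPM against 14.2 CPM. An ATF4 response in mouse 1237 was not tested.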
